A study of Mus musculus with 23 samples.

Results

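The 36 genes described here encode the 12 subunits of RNA polymerase II and 24 core proteins of the spliceosome, and they were followed through mouse oocytes and early embryos of Eif4enif1+/- and WT genotype. They were chosen by symbol from 56196 gene rows, each symbol was found once in each of the 2 deposited count tables, and all 36 passed the filter on low counts. RNA polymerase II is the enzyme that makes messenger RNA. The subunits Polr2e, Polr2f, Polr2h, Polr2k and Polr2l (5 in all) are also built into RNA polymerases I and III, which make ribosomal RNA and transfer RNA. The other 7 (Polr2a, Polr2b, Polr2c, Polr2d, Polr2g, Polr2i and Polr2j) are not. The spliceosome removes introns: the U1 and U2 small nuclear ribonucleoproteins (snRNPs) find the 5′ splice site and the branch point, and a ring of Sm proteins wraps the small nuclear RNA of each. SF3A and SF3B anchor U2 to the branch point, U2AF reads the polypyrimidine tract and the 3′ splice site, and Prpf8 of U5 forms the scaffold of the catalytic centre. A fully grown oocyte is transcriptionally silent and lives on stored messages, so that the mouse embryo depends on inherited RNA until its own genome becomes active around the 2-cell stage.

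Eif4enif1 is the gene of 4E-T, a partner of the cap-binding factor eIF4E that holds messages back from translation. Groups were Eif4enif1+/- (het) and WT. Germinal vesicle (GV) oocytes, the immature stage with an intact nucleus, gave paired translatome and transcriptome libraries by T&T-seq, a method that profiles the ribosome-bound mRNA (here captured with RiboLace) and the total mRNA of the same sample in parallel. There were 2 libraries for each of het translatome, WT translatome, het transcriptome and WT transcriptome. Embryo RNA-seq covered 5 groups of 3 libraries: het embryos arrested at the 1-cell stage and held in culture for 24 h, het 2-cell and WT 2-cell embryos cultured for 24 h, and het 1-cell and WT 1-cell embryos with no treatment. The sources used here give neither strain and age, nor the structure of the mutant allele, nor the number of oocytes or embryos in a library. They also leave unsaid if an embryo's labelled genotype is maternal, and if replicates came from separate animals, so the tests measure the spread between these libraries. The arrested embryos had no WT counterpart among the libraries, so that arrest and genotype cannot be told apart in a comparison with WT embryos.

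Libraries held 3621103 to 50487687 counts in GV oocytes and 5597333 to 40377212 counts in embryos. Eif4enif1 itself was lower in every het GV, 1-cell and 2-cell library than in every WT library of the same kind. GV transcriptomes held 87.3 and 96.1 CPM when het and 217 and 222 CPM when WT. Het 1-cell embryos were at 72.1, 69.9 and 69.2 CPM and WT 1-cell embryos at 134, 148 and 178 CPM. In arrested embryos it was at 109.6, 28.5 and 62.7 CPM. Levels below are in CPM, each gene's share of the library's counts put on a common library size with edgeR's TMM factors. Changes are log2 fold changes with standard errors (SE) from edgeR's quasi-likelihood test, with p-values adjusted over all 22409 GV or 23656 embryo genes tested and called at 0.05. Het 1-cell libraries 1 and 3 stood apart from the other 4 1-cell libraries: their 100 most abundant genes held 6.34% and 5.53% of counts, against 38.1% in het 1-cell library 2 and 32.1% to 37.6% in the WT 1-cell libraries. The 19 oocyte marker genes summed to 2569 and 2106 CPM, against 28653 CPM in het library 2 and 25397 to 30540 CPM in WT. Counts of calls that use het 1-cell embryos are therefore also given without both. As values are relative to each library's total, fewer cells or embryos and less RNA per cell cannot be told apart. Mitochondrially encoded genes took 15.7% to 17.3% of counts in arrested, 13.6% to 19.8% in het 2-cell and 9.23% to 10.2% in WT 2-cell libraries, against 0.336% to 3.68% in 1-cell libraries. The part of this share in the results was not tested.

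Messages for these 36 proteins were not stored in equal amounts. In WT GV transcriptomes the level per kilobase of exon was highest for Polr2d, at 833 ± 12.1 CPM per kb, and Polr2j, at 448 ± 25.4 CPM per kb (SD, n = 2 libraries). Polr2d forms the stalk of the enzyme with Polr2g. Their ranges did not overlap. Polr2g itself ranked 3 or 4 in all 4 GV groups, at 384 ± 31.7 CPM per kb in WT transcriptomes. The lowest was Polr2a, the largest subunit, which carries the repetitive C-terminal domain, at 0.671 ± 0.333 CPM per kb. Next came U2af2, the large U2AF subunit that binds the polypyrimidine tract, at 1.496 ± 0.809 CPM per kb, and Snrnp70, the 70 kDa protein of U1, at 1.62 ± 0.0652 CPM per kb. U2af2 and Snrnp70, neighbours in this order, overlapped over libraries, and the Polr2a and U2af2 values lay side by side without overlap. At the 2-cell stage Polr2j had the highest mean in WT 2-cell embryos, at 546 ± 104 CPM per kb (SD, n = 3). Polr2l followed at a mean of 539.8 CPM per kb, and the 2 overlapped over libraries. Snrnp70, U2af2 and Sf3b3 were last at 1.31 ± 0.445, 1.29 ± 0.624 and 1.14 ± 0.509 CPM per kb, and overlapped as well. These levels depend on the annotated exon length, which runs from 624 bp for Polr2k to 11370 bp for Sf3b1.

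For 14 of the 36 genes, annotated exons overlap those of another gene, and 14 have at least 1 near-identical copy elsewhere in the genome (100 bp or more at 95% identity). How the counting treated such reads is not stated. The levels of Snrpf, whose exons lie largely within those of Ccdc38 and a neighbouring transcript, and of Polr2k and Polr2l, with 6 copies each, are the most uncertain for this reason. Snrpg has 4 copies, Snrpc and U2af1 have 3, and Polr2c, Snrpd2 and Snrpa have 2.

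**Figure D1:**
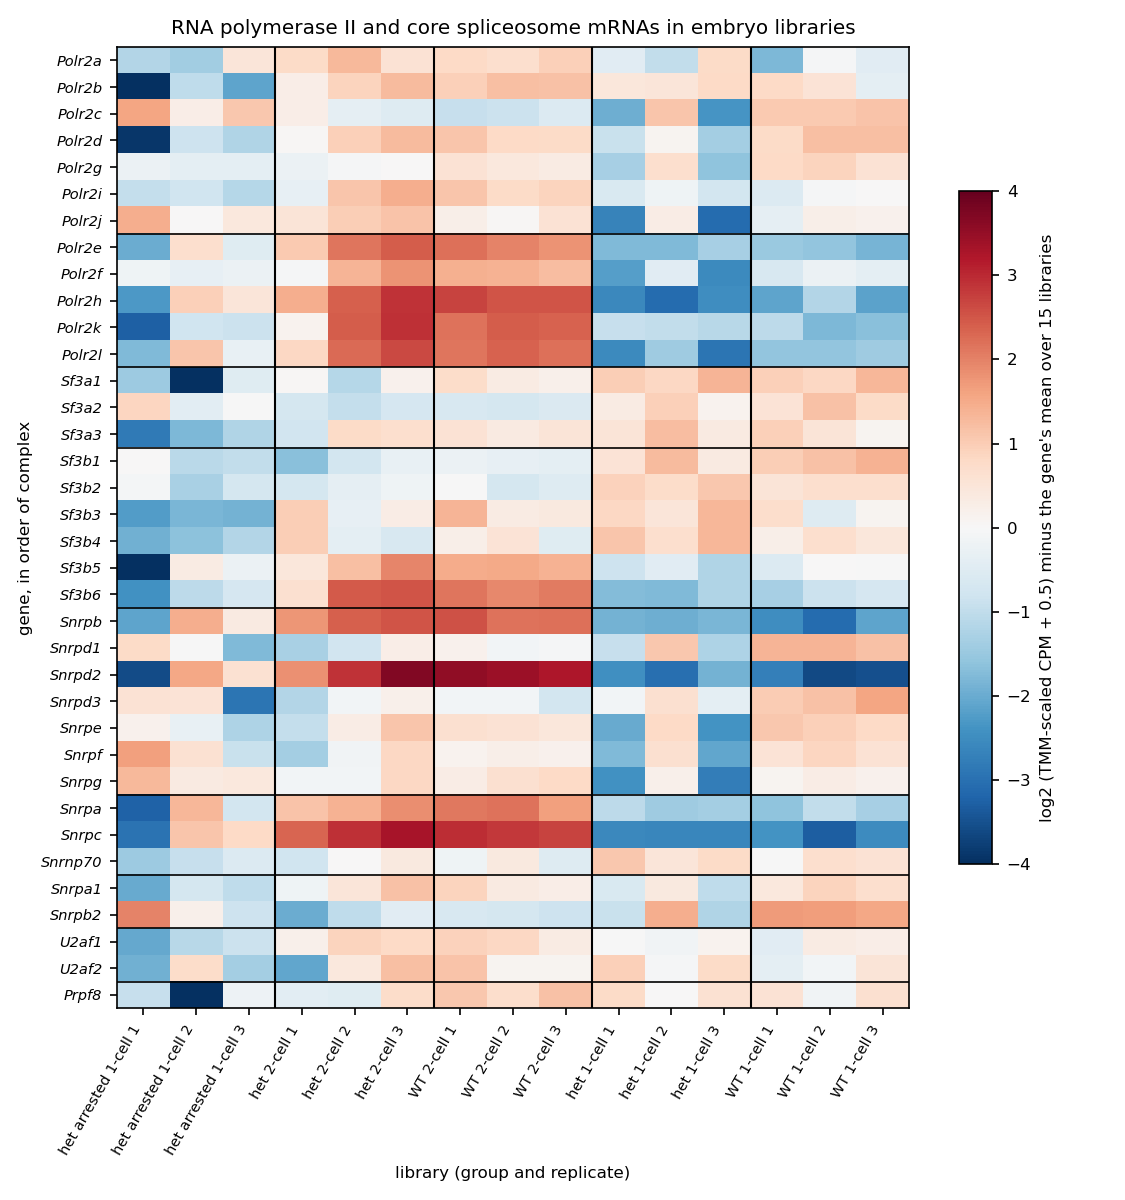
Level of each of the 36 messages in the 15 embryo libraries (columns, 3 per group), as log2 (TMM-scaled CPM + 0.5) minus the gene's mean over the libraries; colours are limited to 4 in either direction and horizontal lines separate the complexes. The shared polymerase subunits Polr2e, Polr2h, Polr2k and Polr2l and the splicing proteins Snrpb, Snrpd2, Snrpa, Snrpc and Sf3b6 are red in the 6 2-cell libraries and blue in the 6 1-cell libraries, arrested library 1 is blue for these genes too, and het 1-cell libraries 1 and 3 are low for Polr2c, Polr2j, Snrpe and Snrpg.

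Between the 1-cell and 2-cell stages, 11 of the 36 messages rose and 4 fell in WT embryos, and the same 11 rose in het embryos, where 3 fell. Over all genes tested, 28.5% rose and 17.9% fell in WT and 22.8% rose and 13.9% fell in het embryos, so the members' shares (11 of 36 up in both) were near those of all genes. The median log2 change of the members was 0.47 in WT and 0.76 in het embryos, against 0.59 and 0.36 over all genes. By complex, edgeR's fit of all 5 groups called all 5 polymerase subunits shared with RNA polymerases I and III higher in both genotypes, and 1 of the 7 other polymerase subunits (Polr2i). The Sm ring contributed 2 of its 7 proteins (Snrpb and Snrpd2), U1 2 of its 3 (Snrpa and Snrpc) and SF3B 1 of its 6 (Sf3b6), with no such call in SF3A, U2, U2AF or U5. Other settings added members: DESeq2 also called Sf3b5, Polr2j, Polr2d and U2af1 higher in het and Polr2a in WT embryos. Sf3b5 was called higher in het embryos with RLE scaling, with no filter on low counts and with only the compared groups fitted as well. With only the WT groups fitted, edgeR called Sf3b5 higher in WT embryos too (log2 1.75, adjusted p = 0.000156). The messages that fell in the fit of all 5 groups were Sf3a2, Sf3b1 and Sf3b2 in both genotypes, and Snrpb2 in WT embryos. With only the WT groups fitted, edgeR also called Polr2c, Snrpd1 and Snrpd3 lower in WT embryos. No test of one complex against another was made, so none is shown to differ from another.

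Snrpc encodes the U1-C protein, which stabilises pairing of U1 with the 5′ splice site (chromosome 17, 27838150 to 27851968, plus strand, GRCm38). It had 264, 405 and 519.7 CPM in het 2-cell embryos and 407, 379 and 341 CPM in WT 2-cell embryos. Snrpc was at 8.31, 8.24 and 8.12 CPM in het 1-cell embryos and 9.59, 4.94 and 8.79 CPM in WT 1-cell embryos. Every 2-cell library was far above every 1-cell library. The log2 change was 5.59 (SE 0.79, adjusted p = 0.000289) in het embryos and 5.59 (SE 0.79, adjusted p = 0.000164) in WT embryos. Snrpa, the U1-A protein that binds a loop of U1 RNA, followed with 173, 204 and 282 CPM in het 2-cell and 338, 354 and 242 CPM in WT 2-cell embryos. Snrpa was at 37.1, 28.6 and 30.2 CPM in het 1-cell and 25.3, 39.00 and 30.8 CPM in WT 1-cell embryos. Its groups did not overlap between stages, and the log2 change was 2.78 (SE 0.75, adjusted p = 0.0103) in het and 3.29 (SE 0.76, adjusted p = 0.00329) in WT embryos. Snrnp70, the other U1 protein, passed the test in neither genotype, at log2 -0.87 in het and -0.51 in WT embryos.

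Snrpd2, an Sm ring protein, had the largest log2 change of the members in WT embryos (chromosome 7, 19149722 to 19153542, plus strand). It had 68.1, 143 and 252 CPM in het 2-cell embryos and 223, 207 and 180.4 CPM in WT 2-cell embryos. Snrpd2 was at 3.01, 1.88 and 4.69 CPM in het 1-cell embryos and 2.40, 1.09 and 1.18 CPM in WT 1-cell embryos. The 1-cell levels were at most a few CPM in every library and the 2-cell levels were well above them in every library, with a log2 change of 5.58 (SE 0.99, adjusted p = 0.000982) in het and 7.03 (SE 1.06, adjusted p = 0.000227) in WT embryos. Snrpb, which encodes SmB and its longer form SmB′, had 96.7, 151 and 165 CPM in het 2-cell and 167, 129 and 133 CPM in WT 2-cell embryos. Snrpb was at 7.25, 6.90 and 7.61 CPM in het 1-cell and 4.66, 2.89 and 6.22 CPM in WT 1-cell embryos. The stages did not overlap here either, and the log2 change was 4.25 (SE 0.68, adjusted p = 0.000572) in het and 4.96 (SE 0.71, adjusted p = 0.000167) in WT embryos. The other 5 ring proteins did not pass the threshold in edgeR's fit of all 5 groups: their log2 changes were -0.48 for Snrpd1, -0.37 for Snrpd3, 0.84 for Snrpe, 0.56 for Snrpf and 1.28 for Snrpg in het embryos. In WT embryos they were -1.30 for Snrpd1, -1.58 for Snrpd3, -0.39 for Snrpe, -0.50 for Snrpf and 0.41 for Snrpg. With only the WT groups fitted, edgeR called Snrpd1 (adjusted p = 0.000502) and Snrpd3 (adjusted p = 0.00118) lower and Snrpg higher (adjusted p = 0.0459). In het embryos without 1-cell library 2, edgeR called Snrpe, Snrpf and Snrpg higher (adjusted p = 0.00728, 0.049 and 0.00165). Of all genes, 6078 of 25783 were called in that run. A complete ring holds all 7 proteins. In WT 1-cell embryos the 5 had means of 125 ± 25.1 (Snrpd3) to 492 ± 38.9 CPM (Snrpd1), against 4.59 ± 1.67 CPM for Snrpb and 1.56 ± 0.730 CPM for Snrpd2 (SD, n = 3). By level per kilobase of exon Snrpf ranked 2 and Snrpd2 ranked 35 of the 36 there.

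Of the shared polymerase subunits, Polr2h (RPB8) had 149, 286 and 408 CPM in het 2-cell embryos and 358, 312 and 314 CPM in WT 2-cell embryos. Polr2h was at 8.84, 6.002 and 9.38 CPM in het 1-cell embryos and 12.2, 23.8 and 12.03 CPM in WT 1-cell embryos. Its log2 change was 5.12 (SE 0.72, adjusted p = 0.000286) in het and 4.36 (SE 0.69, adjusted p = 0.000306) in WT embryos, with no overlap between stages. Polr2e (RPB5, a jaw of the enzyme) had 115, 247 and 299 CPM in het 2-cell and 261, 223 and 194 CPM in WT 2-cell embryos. Polr2e was at 16.00, 16.2 and 21.8 CPM in het 1-cell and 19.5, 18.3 and 15.1 CPM in WT 1-cell embryos. Polr2l (RPB10), which helps hold the assembly platform together, had 336, 903 and 1168 CPM in het 2-cell and 837, 973 and 862 CPM in WT 2-cell embryos. Polr2l was at 31.7, 70.5 and 24.2 CPM in het 1-cell and 62.5, 62.5 and 70.00 CPM in WT 1-cell embryos. For both genes het 2-cell library 1 was the lowest of the 2-cell libraries and still above every 1-cell library. Log2 changes were 3.61 (SE 0.58, adjusted p = 0.000578) in het and 3.68 (SE 0.58, adjusted p = 0.000295) in WT embryos for Polr2e. They were 4.25 (SE 0.73, adjusted p = 0.000792) in het and 3.78 (SE 0.71, adjusted p = 0.000866) in WT embryos for Polr2l. Polr2k (RPB12) changed by log2 3.27 in het and 3.85 in WT embryos, both called. Polr2f (RPB6), the most abundant of the 5 in WT 1-cell embryos at 194 ± 27.3 CPM (SD, n = 3), rose by log2 2.65 in het and 1.77 in WT embryos.

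Of the 7 subunits that are not shared, Polr2i (RPB9) rose by log2 1.42 in het and 1.12 in WT embryos, although the lowest het 2-cell value of 42.5 CPM lay below the highest het 1-cell value of 47.03 CPM. The WT call was lost when any 1 of the 6 WT libraries was left out, with adjusted p up to 0.129. Polr2a, Polr2b, Polr2c, Polr2d, Polr2g and Polr2j were called in neither genotype by edgeR's fit of all 5 groups, and of these 6 only Polr2b and Polr2g had no call under DESeq2. DESeq2 called Polr2a higher (log2 1.69, adjusted p = 0.0243) and Polr2c lower (log2 -1.67, adjusted p = 0.049) in WT embryos, as did edgeR with only the WT groups fitted (adjusted p = 0.0228 for Polr2a and 5.18e-05 for Polr2c). In het embryos DESeq2 called Polr2j (log2 2.04, adjusted p = 0.0188) and Polr2d (log2 1.601, adjusted p = 0.0306) higher. Without het 1-cell library 2, Polr2c, Polr2d, Polr2g and Polr2j were called higher by edgeR in het embryos. Polr2a, the catalytic subunit, had 10.1, 15.1 and 8.89 CPM in het 2-cell and 10.4, 9.60 and 11.6 CPM in WT 2-cell embryos. Polr2a was at 4.07, 2.69 and 10.3 CPM in het 1-cell and 1.30, 5.58 and 4.11 CPM in WT 1-cell embryos. The log2 change of Polr2a was 0.996 (SE 0.72, adjusted p = 0.284) in het and 1.52 (SE 0.73, adjusted p = 0.0986) in WT. Polr2c, which with Polr2j nucleates the assembly platform, was the most abundant member in CPM at the WT 1-cell stage. It had 802, 524 and 473 CPM in het 2-cell and 357, 369 and 461 CPM in WT 2-cell embryos. Polr2c was at 172, 1465 and 132 CPM in het 1-cell and 1402, 1378 and 1476 CPM in WT 1-cell embryos. In WT embryos its stages did not overlap although it missed the threshold, at log2 -1.84 (SE 0.75, adjusted p = 0.0541).

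Within SF3B the members moved both ways. Sf3b6 (p14) is the small protein that contacts the branch point. It had 94.1, 334 and 347 CPM in het 2-cell and 271, 232 and 255 CPM in WT 2-cell embryos. Sf3b6 was at 17.9, 17.5 and 25.9 CPM in het 1-cell and 23.8, 33.4 and 37.7 CPM in WT 1-cell embryos. The log2 change of Sf3b6 was 3.66 (SE 0.55, adjusted p = 0.000407) in het and 2.998 (SE 0.54, adjusted p = 0.000648) in WT embryos. Sf3b1, the large HEAT-repeat protein that clamps the branch point, fell to 59.6, 114 and 157 CPM in het 2-cell and 163, 152 and 145 CPM in WT 2-cell embryos. Sf3b1 was at 278, 463 and 243 CPM in het 1-cell and 377, 432 and 501 CPM in WT 1-cell embryos. The log2 change of Sf3b1 was -1.57 (SE 0.45, adjusted p = 0.0141) in het and -1.51 (SE 0.45, adjusted p = 0.0135) in WT embryos. Neither gene's stages overlapped in either genotype. Sf3b2, which bridges SF3B proteins, fell, with log2 changes of -1.32 in het and -1.02 in WT embryos, and so did Sf3a2, the SF3A protein next to the branch helix, at -1.32 in het and -1.52 in WT embryos. Snrpb2, the U2-B″ protein, was called lower in WT embryos only, with 59.4, 115 and 169.9 CPM in het 2-cell and 151, 143 and 131 CPM in WT 2-cell embryos. Snrpb2 was at 126, 638 and 100.5 CPM in het 1-cell and 763, 748 and 688 CPM in WT 1-cell embryos. In het embryos it changed by log2 -1.33 (SE 0.74, adjusted p = 0.161), with 1-cell libraries 1 and 3 within the 2-cell range and library 2 at the WT 1-cell level. The difference between the genotypes' stage changes was not called for Snrpb2, at log2 1.046 (SE 1.03, adjusted p = 0.9999).

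**Figure D2:**
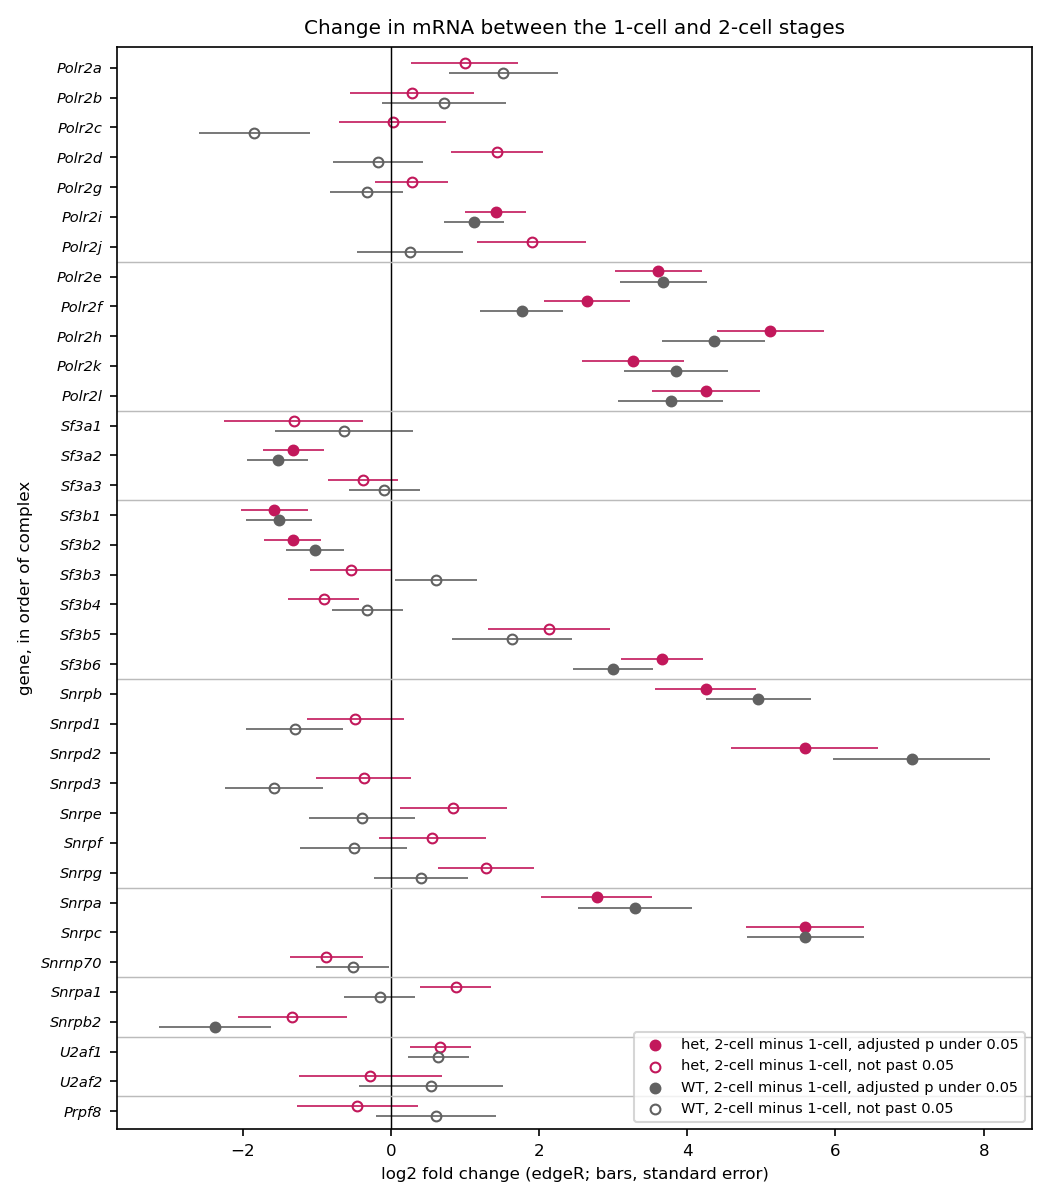
Log2 fold change between the 1-cell and 2-cell stages for each gene (bars, standard error), in het (magenta) and WT (grey) embryos; filled points passed an adjusted p of 0.05. The 5 shared polymerase subunits form a block between 1.77 and 5.12 in both genotypes, while the 7 other subunits lie between 0.025 and 1.90 in het and between -1.84 and 1.52 in WT embryos and the splicing complexes hold both rising and falling members.

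Of the 15 WT calls, 11 held in every alternative run: Polr2e, Polr2h, Polr2k, Polr2l, Sf3b6, Snrpa, Snrpb, Snrpc and Snrpd2 among those that rose, and Sf3a2 and Sf3b1 among those that fell. In het embryos 6 of 14 did, Polr2e, Polr2h, Sf3b6, Snrpb, Snrpc and Snrpd2, all higher at the 2-cell stage. Without het 1-cell libraries 1 and 3, with library 2 alone left in its group, 7 members were called in het embryos, those 6 and Sf3b1. That run also made fewer calls over all genes. TMM scaling was not neutral between the stages: with RLE scaling the median log2 change of all genes was 0.17 higher in both genotypes. The members called with RLE scaling were 16 in het and 14 in WT embryos, beside 8854 and 11049 of all 23656 genes. Markers of other cell types also differed between the stages, and their part in these changes was not tested. The 8 blood markers summed to 184 to 321 CPM in het 2-cell and 395 to 566 CPM in WT 2-cell libraries, against 0.448 to 4.33 CPM in het 1-cell and 0.0514 to 0.274 CPM in WT 1-cell libraries. In 2-cell embryos nearly all of it came from the alpha-globin genes Hba-a1 and Hba-a2, while Ptprc was at 0 counts in every 2-cell library. The 23 granulosa cell markers summed to 179.7 to 201 CPM in het 2-cell and 186 to 202 CPM in WT 2-cell libraries, against 388 to 1029.6 CPM in het 1-cell and 1024 to 1088 CPM in WT 1-cell libraries. Serpine2 led the WT 1-cell sum, and Foxl2 and Nr5a1 were at 0 in every 1-cell library.

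The sequences upstream of a few of these genes are shown to set members that moved each way between the stages side by side; they are from RefSeq on GRCm38.p6, and 28 of the 36 members had a window of 250 bases before to 50 after the start. Each stretch below is the 100 bases before the outermost start annotated by RefSeq or GENCODE M21, read 5′ to 3′ on the gene's strand. They are from 3 genes that rose (Polr2e, Snrpd2 and Sf3b6), 1 that fell (Sf3b1) and the catalytic subunit Polr2a, which was not called. On GRCm38.p6 the stretches lie at chr10:80039796-80039895 (Polr2e, minus strand), chr7:19149622-19149721 (Snrpd2, plus strand), chr12:4817444-4817543 (Sf3b6, plus strand), chr1:55027482-55027581 (Sf3b1, minus strand) and chr11:69758638-69758737 (Polr2a, minus strand). Capitals mark the GC box GGGCGG and the ETS core CCGGAAG on either strand; Sf3b6 holds both, side by side, and the stretch of Snrpd2 holds neither.
Polr2e: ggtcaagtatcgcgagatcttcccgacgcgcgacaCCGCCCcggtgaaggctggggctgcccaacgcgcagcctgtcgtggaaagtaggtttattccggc
Snrpd2: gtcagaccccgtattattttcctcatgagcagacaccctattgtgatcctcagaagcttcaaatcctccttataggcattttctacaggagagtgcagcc
Sf3b6: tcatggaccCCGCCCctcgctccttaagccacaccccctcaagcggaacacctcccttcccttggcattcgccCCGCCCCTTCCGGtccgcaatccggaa
Sf3b1: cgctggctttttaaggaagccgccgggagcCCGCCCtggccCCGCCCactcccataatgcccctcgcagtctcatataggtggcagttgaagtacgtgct
Polr2a: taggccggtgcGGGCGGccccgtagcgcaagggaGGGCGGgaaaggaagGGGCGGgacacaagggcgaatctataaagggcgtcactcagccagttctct
The GC box was found in at least 1 window of 18 of the 28 members (64.3%), against 38.2% of all 27025 genes with a window, and CCGGAAG in 13 of 28 (46.4%), against 9.93% of all genes. Among the 9 genes with a window that rose in WT embryos, 7 held a GC box and 3 held CCGGAAG. Among the 4 that fell, 3 held each, and among the 15 that were not called, 8 and 7 did. CCAAT was found in 10 of the 28 members (35.7%, against 41.1% of all genes), TATAAA in 4 (14.3% against 15.7%), GCATGCGC in 3 (10.7% against 3.05%) and AAGATGG in 1 (3.57% against 7.28%), all searched on both strands. A match is a description of the letters, and whether any of these motifs is bound was not measured.

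No member was called between het and WT embryos at the 1-cell stage or at the 2-cell stage by edgeR's test. Eif4enif1, lower in every het than in every WT library at both stages, was called at neither. The test can therefore miss a difference like that one. At the 1-cell stage 0% of all genes were called. Of the members 2 had an unadjusted p under 0.05, against 889 of all 23656 genes, and DESeq2 called 0. The largest log2 differences, none of them a call, were -1.66 (SE 0.62, adjusted p = 1) for Polr2d, -1.42 (SE 0.73, adjusted p = 1) for Snrpe and -1.35 (SE 0.74, adjusted p = 1) for Snrpb2. Polr2d had 93.4, 187 and 66.9 CPM in het embryos, against 296, 405 and 398 CPM in WT 1-cell embryos, without overlap. Snrpe had 59.1, 416 and 45.7 CPM in het embryos, against 511, 466 and 413 CPM in WT. For Snrpe the low values were those of libraries 1 and 3, and library 2 lay within the WT range. Without het library 2, 5 members were called lower in het than in WT 1-cell embryos: Polr2c, Polr2g, Polr2j, Snrpe and Snrpg. Over all 25783 genes in that fit, which keeps het libraries 1 and 3, 278 were lower and 6 higher. Without libraries 1 and 3 a single het 1-cell library is left, which is assumed to vary like the other groups; none was then called, with 0 members at an unadjusted p under 0.05, and the median log2 difference of the members was -0.02, against -0.33 with all 3.

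At the 2-cell stage 0.00423% of all genes were called between het and WT embryos, no member had an unadjusted p under 0.05 and DESeq2 called 0. The member with the largest log2 difference was Prpf8, at -0.96 (SE 0.82, adjusted p = 1), with 7.86, 7.54 and 18.4 CPM in het embryos, against 23.3, 17.7 and 24.7 CPM in WT 2-cell embryos. Sf3b1 had 59.6, 114 and 157 CPM in het embryos, against 163, 152 and 145 CPM in WT, and its ranges overlapped. Het 2-cell library 1 was the lowest of the 2-cell libraries for all 11 members that rose in WT. On a scale from the WT 1-cell mean (0%) to the WT 2-cell mean (100%) of log2 (CPM + 0.5), their median was 73.7% in that library, 102% in het library 2 and 110% in library 3. The stage change itself, het minus WT, was called for none of the 36 (0.00423% of all genes); 0 had an unadjusted p under 0.05 and DESeq2 called 0. Without het 1-cell library 2, Polr2c and Polr2j were called, with stage changes more positive in het embryos by log2 3.82 and 3.53. Over all genes, 143 of 25783 were called in that fit. Without libraries 1 and 3, which leaves library 2 alone, 0 members were called and 0 had an unadjusted p under 0.05, and their median was -0.147.

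**Figure D3:**
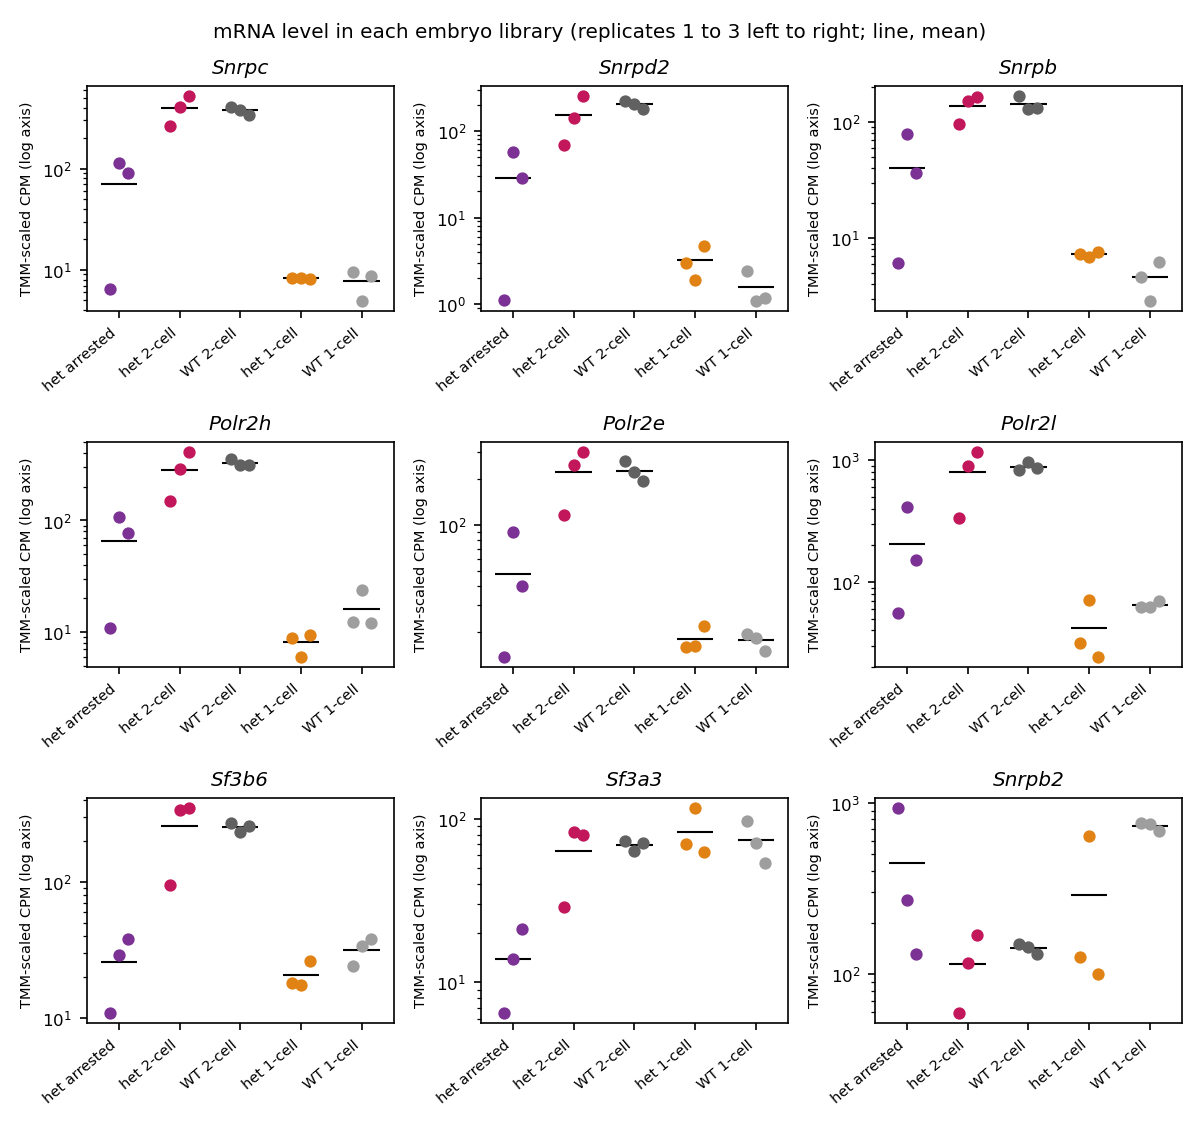
TMM-scaled CPM (log axis) of 9 messages in every embryo library, in replicate order within each group, with the group mean as a line. In Snrpc, Snrpd2, Snrpb, Polr2h, Polr2e and Polr2l arrested library 1 sits with the 1-cell libraries and arrested libraries 2 and 3 lie above it, while in Sf3a3 all 3 arrested libraries are below every other library.

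The arrested embryos had been in culture as long as the 2-cell embryos without dividing. Compared with 2-cell embryos, none of the 36 messages was higher and 12 were lower in arrested than in het 2-cell embryos, and 16 were lower in arrested than in WT 2-cell embryos, a list that includes all 12. Over all genes, 3.85% were higher and 4.55% lower than in het 2-cell embryos, and 10.1% higher and 8.74% lower than in WT 2-cell embryos. The median log2 difference of the members was -1.46 against het and -1.81 against WT 2-cell embryos, with -0.01 and 0.01 over all genes. The 2 comparisons share the arrested libraries. Of the 11 messages that rose in WT embryos between the stages, edgeR's fit called 9 lower in arrested than in WT 2-cell embryos. The other 2, Polr2f and Snrpa, were called lower by DESeq2 (adjusted p = 0.0161 and 0.0289) and by edgeR with no filter on low counts (adjusted p = 0.0466 and 0.0494). These 11 were picked as high in the same WT 2-cell libraries. That choice favours a lower level in arrested embryos, so the overlap is a description and not a separate test.

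Sf3b6 had 10.8, 28.9 and 37.7 CPM in arrested embryos, against 94.1, 334 and 347 CPM in het 2-cell and 271, 232 and 255 CPM in WT 2-cell embryos. Its log2 difference was -3.32 (SE 0.55, adjusted p = 0.0102) against het and -3.29 (SE 0.54, adjusted p = 0.00444) against WT. Polr2k had 2.64, 17.1 and 16.2 CPM in arrested embryos, against 33.2, 161 and 228 CPM in het 2-cell and 137, 162 and 154 CPM in WT 2-cell embryos. Log2 differences of Polr2k were -3.55 (SE 0.69, adjusted p = 0.0129) against het and -3.65 (SE 0.70, adjusted p = 0.00573) against WT. All 3 arrested libraries were below every 2-cell library for both messages. Polr2i had 27.2, 30.1 and 23.9 CPM in arrested embryos, against 42.5, 115 and 145 CPM in het 2-cell and 117, 91.5 and 99.7 CPM in WT 2-cell embryos, again without overlap, at log2 -1.90 against het and -1.92 against WT. U2af1, the small U2AF subunit that reads the AG of the 3′ splice site, had 4.99, 10.1 and 12.1 CPM in arrested embryos, against 25.7, 41.4 and 38.9 CPM in het 2-cell and 42.9, 39.8 and 28.04 CPM in WT 2-cell embryos. The log2 differences were -1.96 against het and -2.02 against WT. The other calls shared by both comparisons were Polr2d, Polr2e, Polr2h, Sf3a3, Sf3b3, Sf3b4, Snrpa1 and Snrpc, and Polr2b, Polr2l, Snrpb and Snrpd2 were called by edgeR against WT and not against het 2-cell embryos. DESeq2 called these 4 lower against het 2-cell embryos too, with adjusted p of 0.00413 for Polr2b, 0.0137 for Polr2l, 0.0201 for Snrpb and 0.0191 for Snrpd2. Polr2b had 0 counts in arrested library 1, where 3 counts would correspond to 0.283 CPM, and 9.47 and 4.17 CPM in libraries 2 and 3, against 38.9, 45.6 and 45.01 CPM in WT 2-cell embryos.

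Compared with 1-cell embryos, 5 messages were higher and 5 lower in arrested than in het 1-cell embryos, and 4 were higher and 8 lower in arrested than in WT 1-cell embryos. Over all genes, 9.97% were higher and 3.91% lower than in het 1-cell embryos, and 14.1% higher and 5.44% lower than in WT 1-cell embryos. The messages higher against both were Snrpb, Snrpc, Snrpd2 and Polr2h, and Polr2l was higher against het. All 5 also rose between the 1-cell and 2-cell stages. The stage comparisons use the same 1-cell libraries, which favours this overlap. The arrested libraries did not move as one. Snrpc had 6.40, 113 and 91.6 CPM and Snrpd2 1.13, 56.4 and 28.6 CPM in arrested libraries 1, 2 and 3. Snrpb had 6.12, 78.5 and 36.5 CPM, Polr2h 10.8, 107 and 76.6 CPM and Polr2l 55.2, 410.5 and 152 CPM in the same libraries. Library 1 lay within the range of the 6 1-cell libraries for each of these 5, and libraries 2 and 3 lay above that range. Log2 differences against het 1-cell embryos were 3.003 (SE 0.66, adjusted p = 0.00953) for Polr2h and 3.10 (SE 0.71, adjusted p = 0.0117) for Snrpc. Against WT 1-cell embryos they were 3.14 (SE 0.65, adjusted p = 0.00587) for Snrpb and 4.21 (SE 0.94, adjusted p = 0.00818) for Snrpd2. On the scale from the WT 1-cell to the WT 2-cell mean, the median of the 11 rising members was -9.35% in arrested library 1, 63.7% in library 2 and 31.7% in library 3, with 0, 7 and 4 of the 11 past the midpoint. The summed level of 15 two-cell-stage marker genes ran the same way, at 487 CPM in arrested library 1, 3957 CPM in library 2 and 2728 CPM in library 3. It was 1347 to 4302 CPM in het 2-cell, 1496 to 2094 CPM in WT 2-cell, 138 to 271 CPM in het 1-cell and 256 to 278 CPM in WT 1-cell libraries. The alpha-globin-dominated blood markers did so too, at 7.44, 415 and 216 CPM in arrested libraries 1, 2 and 3.

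A second set of messages was below both stages in the arrested embryos. Sf3a3, Sf3b3 and Sf3b4 were lower in arrested embryos than in het 1-cell, WT 1-cell, het 2-cell and WT 2-cell embryos. In edgeR's fit of all 5 groups, Polr2d, Snrpa1 and U2af1 were lower than in WT 1-cell, het 2-cell and WT 2-cell embryos. DESeq2 called U2af1 lower than in het 1-cell embryos too (log2 -1.25, adjusted p = 0.00728). Sf3a3, the SF3A protein that links SF3A to SF3B and U2 RNA, had 6.50, 13.8 and 21.2 CPM in arrested embryos, against 29.05, 83.3 and 79.3 CPM in het 2-cell and 73.1, 63.9 and 71.4 CPM in WT 2-cell embryos. Sf3a3 was at 70.1, 116 and 62.7 CPM in het 1-cell and 96.5, 71.3 and 53.3 CPM in WT 1-cell embryos. All 3 arrested libraries were below every other embryo library, and log2 differences were -2.58 (SE 0.51, adjusted p = 0.00569) against het 1-cell and -2.41 (SE 0.50, adjusted p = 0.00604) against WT 1-cell embryos. Sf3b3, a large scaffold of SF3B, had 1.13, 1.65 and 1.55 CPM in arrested embryos, against 14.4, 5.49 and 8.79 CPM in het 2-cell and 18.9, 8.98 and 9.51 CPM in WT 2-cell embryos. Sf3b3 was at 13.00, 10.1 and 18.6 CPM in het 1-cell and 11.9, 4.81 and 7.76 CPM in WT 1-cell embryos. Sf3b4, an RNA-binding SF3B protein, had 4.43, 5.56 and 7.73 CPM in arrested embryos, against 36.4, 13.8 and 11.52 CPM in het 2-cell and 21.7, 26.9 and 12.8 CPM in WT 2-cell embryos. Sf3b4 was at 39.96, 29.5 and 46.2 CPM in het 1-cell and 21.6, 29.6 and 25.2 CPM in WT 1-cell embryos. For both, too, the arrested libraries lay below all the others. Sf3a1, a further SF3A protein, was at 0 counts in arrested library 2, where 3 counts would be 0.154 CPM. It was not called by edgeR's fit of all 5 groups. DESeq2 called it lower against het 1-cell (adjusted p = 0.0252) and WT 1-cell embryos (adjusted p = 0.0207), and so did edgeR with no filter on low counts (adjusted p = 0.0447 and 0.0319). For Polr2b, too, DESeq2 made these calls against het 1-cell (adjusted p = 0.0141) and WT 1-cell embryos (adjusted p = 0.0189). So did edgeR with no filter on low counts (adjusted p = 0.0264 and 0.0272).

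These arrested results rest on how the spread was estimated. When only the 2 groups compared entered the fit, none of the 36 was called in any of the 4 arrested comparisons by edgeR. In them 12, 16, 15 and 18 members had an unadjusted p under 0.05 against het 1-cell, WT 1-cell, het 2-cell and WT 2-cell embryos. Of all genes, 3197 of 17310, 3665 of 16065, 2778 of 19474 and 5390 of 19852 did in the same order. Over all genes, these fits called 579 of 16065 against WT 1-cell embryos. Against het 1-cell, het 2-cell and WT 2-cell embryos they called 0 of all genes. DESeq2, fitted on all groups, called 15 against het 1-cell, 17 against WT 1-cell, 17 against het 2-cell and 21 against WT 2-cell embryos. Against het 2-cell embryos, leaving out het 2-cell library 2 or 3 also left 0 calls, and leaving out arrested library 3 left 7. Over all genes, these runs called 4 of 25516, 2 of 25521 and 2072 of 25330, in that order. Without arrested library 1, 7 were higher and 7 lower than in het 1-cell embryos, 7 higher and 10 lower than in WT 1-cell embryos, 9 lower than in het 2-cell and 12 lower than in WT 2-cell embryos. Of all 25746 genes, 5938, 7477, 1127 and 3404 were called in that order. Without het 1-cell libraries 1 and 3, 1 member, Sf3a3, was called between arrested and het 1-cell embryos, at log2 -3.32 and an adjusted p of 0.0455 by edgeR; without library 1 alone or library 3 alone, 4 were. Of all genes, 1222 of 25372 were called without library 1 alone and 1270 of 25361 without library 3 alone. The run without both leaves a single het 1-cell library and made fewer calls over all genes too. Against WT 2-cell embryos, 6 members were called without WT library 1 and 7 without WT library 2, and against WT 1-cell embryos 7 without WT library 3. Of all genes, 1382 of 25465, 1634 of 25425 and 2028 of 25678 were called in that order.

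In GV oocytes most of these messages had a lower level in the translatome than in the transcriptome, and few of the differences passed the test. In WT oocytes 4 of the 36 were higher and 7 lower in the translatome than in the transcriptome, where 8.95% of all genes were higher and 5.64% lower. In het oocytes 1 was higher and 1 lower, where 6.19% were higher and 1.91% lower over all genes. The median log2 ratio of translatome to transcriptome was -0.42 over the members in het and -0.48 in WT oocytes, against 0.04 and -0.04 over all genes. With the oocyte sample as a block, since the translatome and transcriptome of each number came from the same sample, 5 members were called in het oocytes (1 higher, 4 lower) and 13 in WT oocytes (4 higher, 9 lower). Calls over all 22409 genes rose as well, from 1814 to 2373 in het and from 3269 to 3898 in WT oocytes.

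The 4 messages higher in the WT translatome have coding lengths of 717 bp (U2af1) to 3651 bp (Sf3b3). Sf3b3 had 94.4 and 69.8 CPM in het translatomes and 37.5 and 39.6 CPM in het transcriptomes, and 122 and 123 CPM in WT translatomes and 46.7 and 48.1 CPM in WT transcriptomes. Translatome and transcriptome did not overlap in either genotype, with log2 ratios of 1.09 (SE 0.25, adjusted p = 0.0177) in het and 1.37 (SE 0.24, adjusted p = 0.00449) in WT oocytes. Snrnp70 had 40.5 and 27.9 CPM in WT translatomes and 12.7 and 12.02 CPM in WT transcriptomes, a log2 ratio of 1.47 (SE 0.29, adjusted p = 0.00687). Polr2b, the second-largest subunit and the partner of Polr2a in the active centre, and U2af1 were higher in the WT translatome by log2 0.85 and 0.84. The WT calls of Sf3b3 and Snrnp70 held in every alternative, while those of Polr2b and U2af1 were lost when any 1 WT library was left out.

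The 7 lower ones have short coding lengths, 201 bp (Polr2l) to 426 bp (Polr2d). Polr2l had 189 and 216 CPM in WT translatomes and 582 and 473 CPM in WT transcriptomes, a log2 ratio of -1.38 (SE 0.31, adjusted p = 0.013). Polr2i, Polr2f, Snrpd2, Polr2d, Polr2k and Snrpg were lower in the WT translatome by log2 -1.18, -0.995, -0.95, -0.82, -1.07 and -0.98. Polr2l, Polr2i, Polr2f, Snrpd2 and Polr2k were also among those higher at the 2-cell than at the 1-cell stage, and Polr2d and Snrpg were not. In het oocytes Snrpc was lower, with 53.6 and 66.1 CPM in translatomes and 106 and 119 CPM in transcriptomes. Its log2 ratio was -0.91 (SE 0.24, adjusted p = 0.0331), a call kept in 5 of 9 alternatives. With the oocyte sample as a block, edgeR called Polr2k, Snrpe and Snrpg lower too in het oocytes (adjusted p = 0.018, 0.0264 and 0.0271). DESeq2 also called Polr2k, Snrpe and Snrpg lower there (adjusted p = 0.0167, 0.0208 and 0.0166). Across the 36 members the log2 ratio increased with log2 coding length, with a Pearson r of 0.59 and a Spearman rho of 0.596 in het oocytes and 0.718 and 0.828 in WT oocytes. Over 15017 coding genes r was 0.137 in het and 0.282 in WT oocytes. The points are genes from the same libraries and not independent, so no p is given, and ribosome capture, amplification and fragmentation all enter the ratio. Leaving out WT translatome library 1 or WT transcriptome library 1 left 2 calls each in WT oocytes, both higher (Sf3b3 and Snrnp70). Leaving out WT translatome library 2 left 7, and WT transcriptome library 2 left 5. Leaving out het translatome library 1 or het transcriptome library 2 left 0 in het oocytes, against 3 without het transcriptome library 1 and 1 without het translatome library 2.

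**Figure D4:**
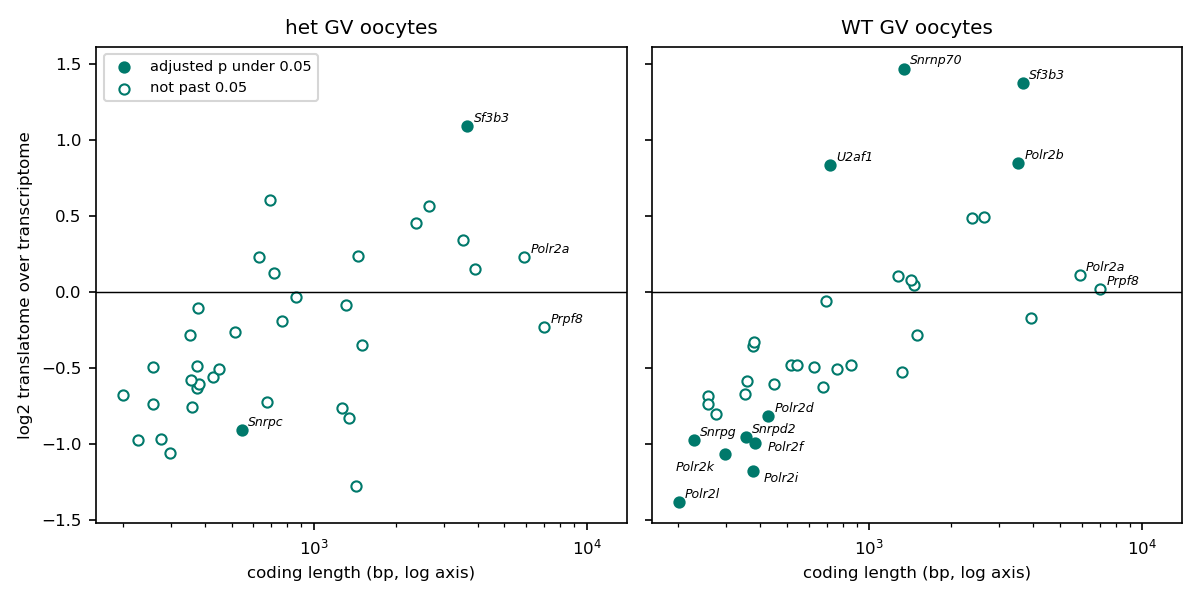
Log2 ratio of translatome to transcriptome for the 36 messages in het (left) and WT (right) GV oocytes, against coding length on a log axis; filled points passed an adjusted p of 0.05. Short messages such as Polr2l (201 bp) lie below 0 in both panels and Sf3b3 (3651 bp) is the highest in het and next to the highest in WT oocytes.

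Between genotypes, few of these messages differed in GV oocytes. In the translatome 1 member was higher and 1 lower in het than in WT oocytes (2.61% and 2.01% of all genes). An unadjusted p under 0.05 was found for 12 members, against 4781 of all 22409 genes. DESeq2 called 3 members, Snrpb, Polr2b and Snrnp70. Snrpb had 156 and 84.7 CPM in het oocytes, against 34.2 and 56.6 CPM in WT translatomes, without overlap, a log2 difference of 1.41 (SE 0.32, adjusted p = 0.0307). Polr2b had 61.4 and 63.97 CPM in het oocytes, against 115 and 125 CPM in WT translatomes with both het values well below both WT values, a log2 difference of -0.94 (SE 0.24, adjusted p = 0.0447). The Snrpb call was lost without library 1 of the het or of the WT translatomes, and the Polr2b call without any 1 of the 4 translatome libraries, with adjusted p up to 0.249. Both calls were also lost with only the compared groups fitted and with the replicate number as a block. In the transcriptome Snrpb had 88.3 and 70.8 CPM in het oocytes, against 46.9 and 47.5 CPM in WT. Polr2b had 42.8 and 55.7 CPM in het oocytes, against 61.6 and 71.8 CPM in WT. Neither was called there, at log2 0.75 (SE 0.32, adjusted p = 0.222) and -0.43 (SE 0.24, adjusted p = 0.355). By complex, the median log2 difference in the translatome was 0.42 for the 5 shared polymerase subunits and 0.47 for the 7 Sm ring proteins, and -0.57 for the 3 SF3A and -0.78 for the 2 U2AF proteins; of these 17 messages only Snrpb was called by edgeR.

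In the transcriptome 1 member was higher and 0 lower in het than in WT oocytes (1.41% and 1.14% of all genes). With RLE scaling 65.7% of the calls over all genes were higher, and with TMM 55.4%. Of the members 6 had an unadjusted p under 0.05, against 4390 of all 22409 genes, and DESeq2 called 1. That member was Snrnp70, with 40.01 and 27.1 CPM in het oocytes, against 12.7 and 12.02 CPM in WT transcriptomes. Its log2 difference was 1.42 (SE 0.29, adjusted p = 0.0248), a call lost without any 1 of the 4 transcriptome libraries (adjusted p up to 0.108). In the translatome the order was turned round, with 18.5 and 18.8 CPM in het oocytes, against 40.5 and 27.9 CPM in WT oocytes. The log2 difference there was -0.88 by edgeR (SE 0.28, adjusted p = 0.0929), not a call. DESeq2 did call Snrnp70 lower in the het translatome (log2 -0.892, adjusted p = 0.046). The genotype effect on the translatome minus that on the transcriptome was log2 -2.30 (SE 0.41, adjusted p = 0.166) for Snrnp70, the largest of the members. No member passed the threshold in that comparison (0.0134% of all genes did), and 2 had an unadjusted p under 0.05 (1999 of all 22409 genes did). DESeq2 called 1, which was Snrnp70 (log2 -2.37, adjusted p = 0.000166). With no filter on low counts edgeR also called it, with an adjusted p of 0.000739, and with the oocyte sample as a block 0 members were called.

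Markers of other cells and the mitochondrial share also differed between the genotypes of these oocytes. The granulosa list gave 1297 and 1763 CPM for het translatomes, 671 and 964 CPM for WT translatomes, 916 and 695 CPM for het transcriptomes and 456 and 709 CPM for WT transcriptomes. All 23 markers were detected in het translatomes, and Ptx3 was at 0 counts in all WT libraries. The mitochondrial share was 0.657% and 1.32% for het translatomes, against 0.229% and 0.158% for WT translatomes. Their part in the Snrpb, Polr2b and Snrnp70 values was not tested.

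**Figure D5:**
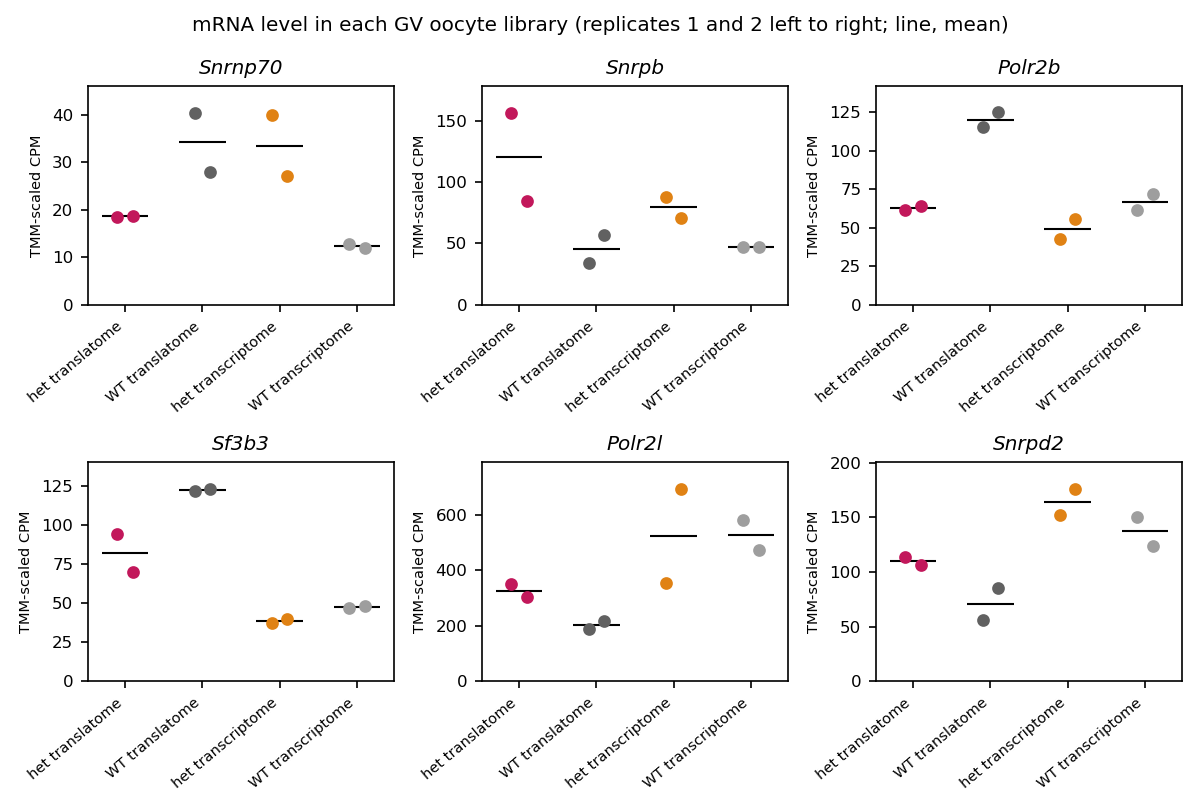
TMM-scaled CPM of 6 messages in each GV oocyte library (2 per group), with the group mean as a line. Snrnp70 is high in the het transcriptome and the WT translatome and low in the other 2 groups, Snrpb is highest in the het translatome, and Polr2b is highest in the WT translatome.

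Genes that work with these complexes were counted from lists drawn up for this purpose, with results of these data already known. Over all genes 22.8% rose and 13.9% fell in het and 28.5% rose and 17.9% fell in WT embryos, the shares against which the stage counts are to be read. Between the 1-cell and 2-cell stages, 9 of 16 subunits particular to RNA polymerases I and III rose and 0 fell in het embryos, and 10 rose and 0 fell in WT embryos. They included Polr1c, common to both enzymes, at log2 5.04 in het and 5.43 in WT embryos, and Crcp at 4.77 and 5.30. Of 17 snRNP assembly genes, 11 rose and 1 fell in het and 12 rose and 2 fell in WT embryos. Prmt5, the enzyme of the methylosome that methylates Sm proteins before they are loaded, rose by log2 2.62 in het and 2.95 in WT embryos, and Clns1a, the chaperone that holds Sm proteins for loading, by 2.59 in het and 2.69 in WT. Wdr77, the partner of Prmt5, was called higher in both, but held so few counts in the 1-cell libraries that no fold is given. Mediator, the coactivator that bridges activators and the polymerase, had 6 of 33 rising and 4 falling in het and 5 rising and 6 falling in WT embryos.

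The general transcription factors had 8 rising and 6 falling of 33 in het and 8 rising and 9 falling in WT embryos. Among them Taf3 and Taf8, subunits of TFIID, fell by log2 -1.83 and -2.87 in het and -2.32 and -3.70 in WT embryos. Of 33 polymerase assembly and elongation factors 11 rose and 6 fell in het and 13 rose and 4 fell in WT embryos. Gpn3, a GTPase needed to bring the polymerase into the nucleus, rose by log2 4.77 in het and 5.21 in WT. The tri-snRNP and LSm list had 8 rising and 3 falling of 24 in het and 10 rising and 4 falling in WT. For the catalytic spliceosome these counts were 4 and 4 of 25 in het and 6 and 3 in WT. The early U1 and U2 factor list had 6 and 4 of 24 in het and 10 and 6 in WT, and the SR protein and kinase list had 10 and 4 of 22 in het and 11 and 8 in WT embryos. SR proteins bind exonic enhancers; Srsf1 rose by log2 2.80 in het and 3.27 in WT embryos.

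Compared with WT 2-cell embryos, where 10.1% of all genes were higher and 8.74% lower in arrested embryos, the tri-snRNP and LSm list had 0 messages higher and 10 lower of 24, and the catalytic spliceosome 0 higher and 7 lower of 25. RNA polymerases I and III had 0 higher and 7 lower of 16, snRNP assembly 2 higher and 7 lower of 17, and SR proteins and their kinases 1 higher and 9 lower of 22. The polymerase assembly and elongation factors had 2 higher and 11 lower of 33, the general transcription factors 6 higher and 8 lower of 33, Mediator 4 higher and 9 lower of 33, and the early U1 and U2 factors 2 higher and 3 lower of 24. Against het 2-cell embryos, where 3.85% of all genes were higher and 4.55% lower, the tri-snRNP and LSm list had 0 higher and 5 lower, the catalytic spliceosome 0 and 1, RNA polymerases I and III 0 and 3, snRNP assembly 0 and 5, and SR proteins 1 and 4. In the same comparison the polymerase assembly and elongation factors had 2 higher and 5 lower, the general transcription factors 3 and 4, Mediator 3 and 5, and the early U1 and U2 factors 1 and 2. Like the member calls, these come from the fit over all 5 embryo groups. In GV oocytes, het against WT, no list had more than 1 call in the translatome or 2 in the transcriptome, and in 1-cell and 2-cell embryos, het against WT, edgeR called 0 in each list.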

How the data were processed

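Full-length mRNA libraries were made from GV oocytes (translatome and transcriptome) and embryos, with no molecular identifiers or strand step named, per the labels' protocols. Values are raw read counts per gene, as the authors deposited them in 2 tables. Reads were trimmed with Trim Galore 0.6.4, aligned to mm10 with HISAT2 2.1.0 and counted with featureCounts 1.6.5, per the submitters' processing notes. How the counting treated strand, duplicates and reads that match several genes is not stated there, so floors cover counting error only.

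Members were matched by symbol, and members and gene lists were chosen with earlier results of these data known. Counts were fitted with edgeR 4.0.16 (R 4.3.3; TMM scaling, filterByExpr, quasi-likelihood F test, Benjamini-Hochberg adjustment over all genes tested), with 1 model over 8 GV libraries in 4 groups and 1 over 15 embryo libraries in 5 groups. No values were compared by test across the 2 tables. The fit was tested on simulated data. Levels per kilobase use GENCODE M21 exon lengths on mm10, and upstream sequences are from RefSeq on GRCm38.p6. Members are named throughout, with values in every library for the called members of smallest p (up to 6 in each direction of a comparison), or the largest changes where fewer than 3 were called; further members were added with their values already known.

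Alternatives were RLE scaling, no filter on low counts, DESeq2 1.42.0, a replicate block, a fit of only the compared groups, and leaving out each library in turn or het 1-cell libraries 1 and 3 together. T&T-seq libraries with the same number come from the same sample, so that the oocyte sample was a block for translatome against transcriptome; same-numbered libraries deviated together with r = 0.247 in het and 0.0925 in WT oocytes over 11512 genes. No group held libraries that agreed within sampling noise.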

Additional observations from a re-analysis of the deposited data

How the results depend on the processing

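Of 95 member calls over all comparisons, 19 were kept in every alternative run and 0 changed direction. With only the compared groups fitted, the member calls were 0 for het against WT GV translatomes (2 in the fit of all groups). For translatome against transcriptome they were 5 in WT oocytes (11) and 6 in het oocytes (2). Between the stages they were 21 in WT embryos (15) and 14 in het embryos (14). For arrested embryos they were 0 against het 1-cell, WT 1-cell, het 2-cell and WT 2-cell embryos (10, 12, 12 and 16). Over all genes, these arrested fits called 0, 579, 0 and 0 in the same order. Without a filter on low counts there were 6 calls between het translatome and transcriptome and 1 for the genotype difference between translatome and transcriptome, and DESeq2 gave 5 and 1. Without het 1-cell libraries 1 and 3 together, 7 members were called between the het stages (14 with them) and 1 between arrested and het 1-cell embryos (10). The run without both libraries also made fewer calls over all genes. The cause of these changes was not tested, and some of these fits also held fewer libraries.

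Leaving out 1 library at a time gave 0 to 2 calls for het against WT translatomes, 0 to 0 for het against WT transcriptomes, 2 to 7 for translatome against transcriptome in WT and 0 to 3 in het oocytes, 0 to 5 for het against WT 1-cell embryos, 0 to 2 for the stage change in het minus WT, and 4 to 14, 7 to 17, 0 to 17 and 6 to 20 for arrested against het 1-cell, WT 1-cell, het 2-cell and WT 2-cell embryos. Over all genes, the arrested runs called 1222 to 5938, 1940 to 7477, 2 to 4004 and 1382 to 6419 in the same order. In GV fits without 1 library, the lone library of its group is assumed to vary like the other groups.

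With the oocyte sample as a block, 5 members were called between translatome and transcriptome in het and 13 in WT oocytes, and 0 for the genotype difference between them. Of all 22409 genes, 2373, 3898 and 7 were called in that order. Between het and WT, and between embryo groups, the samples shared only a number: deviations of same-numbered libraries correlated at -0.272 and -0.401 in GV translatomes and transcriptomes, and at -0.356 to 0.214 in embryos, and no pair of embryo groups had every correlation over 0.1. With the number as a replicate block, 0 members were called between het and WT translatomes (2 without it), 1 between transcriptomes, 14 and 15 between stages in het and WT embryos, and 8, 10, 8 and 15 in the arrested comparisons in the order above. With the numbers of the WT oocyte samples crossed, a pairing chosen after seeing the data, 2 members were called in translatomes and 1 in transcriptomes.

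Over all genes DESeq2 called 1860, 1423 and 112 for het against WT translatomes, transcriptomes and their difference (1034, 572 and 3 by edgeR), 2760 between het translatome and transcriptome (1814), 83, 140 and 79 for the 1-cell, 2-cell and stage-change genotype comparisons (0, 1 and 1), and 5934, 7278, 5075 and 7275 in the arrested comparisons (3283, 4624, 1986 and 4455). RLE scaling moved the median of all genes by 0.17 in both stage comparisons and by -0.13 and -0.12 for arrested against het and WT 2-cell embryos. Depth limits the lowest members most: 3 counts correspond to 0.0706 to 0.283 CPM in embryos.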
